A study of Mus musculus with 24 samples.

Results

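Pre-granulosa cells of the fetal mouse ovary were compared between E13.5 and E15.5 (days of embryonic development), using the 3 XX Enh8-mCherry libraries of each stage. These are 6 of the 24 libraries of the study, chosen by stage, sex and mouse line and by no measured value. The study sorted the supporting cells of XX gonads (pre-granulosa cells) and of XY gonads (Sertoli cells) at 4 stages, with 3 libraries per sex and stage, and measured their polyadenylated RNA. All XX cells came from the Tg(Enh8-mCherry) line, in which mCherry marks the sorted cells, while the SOX9-IRES-GFP line gave all XY cells. No other allele or treatment is given. Sex, mouse line and fluorophore therefore cannot be told apart wherever XX and XY cells are set side by side. The labels do not say which embryos were pooled for a library or whether libraries came from separate litters, so p-values measure the spread between these libraries, which may be technical.

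Pre-granulosa cells are the somatic supporting cells of the fetal ovary. They surround the germ cells, which enter meiosis in this period, and later become the granulosa cells of follicles. FOXL2 and WNT/RSPO1 signalling hold the ovarian fate, and many pre-granulosa cells leave the cell cycle in fetal life with the CDK inhibitors p27 and p57. Interferons act through receptors, JAK kinases and STAT transcription factors on the interferon-stimulated response element (ISRE) of their target genes. Many meiosis genes are kept silent outside the germ line by DNA methylation and by Polycomb-type complexes that read E-box and E2F sites.

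Total counts per library ran from 12872560 to 23601468 at E13.5 and from 11275251 to 22118407 at E15.5, and 3 counts, used as the limit that a count of 0 allows, are 0.125 to 0.26 CPM (the count scaled to a library of standard size). The labels of E13.5 replicate 1 go against each other: its title and description give E13.5 and its stage field gives E12.5. Its mean Spearman correlation was 0.9932 with the other E13.5 libraries, 0.9773 with E12.5 and 0.9699 with E15.5, and it was kept at E13.5. E13.5 replicates 2 and 3 had 0.9725 and 0.9714 with E12.5 and 0.9748 and 0.9728 with E15.5. Of the E13.5 libraries, replicate 1 alone was thus closer to E12.5 than to E15.5. The sorted cells carried pre-granulosa markers at both stages. Fst, an activin antagonist, had 430.4, 435 and 370.5 CPM at E13.5 and 623, 589 and 657 CPM at E15.5, while Foxl2, the defining transcription factor of the lineage, had 22.9, 21.4 and 16.8 CPM at E13.5 and 45.8, 33.4 and 42.2 CPM at E15.5. Both genes were near 0 in Sertoli cells at E13.5, with 0.229 ± 0.0614 CPM (SD, n = 3) for Fst and 0 for Foxl2.

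Across the 16190 genes tested, 4144 (25.6%) were called at an adjusted p under 0.05 in the edgeR quasi-likelihood test. Of these, 2074 (12.8%) were higher and 2070 (12.8%) were lower at E15.5. A change of at least 2-fold was seen in 666 of the higher genes (4.11%) and 609 of the lower ones (3.76%). The median log2 fold change over all genes tested was 0, and the middle 90% of genes lay between -1.31 and 1.21. A fit of the 6 libraries alone, which takes no spread from other stages, called 5581 of 13921 genes (40.1%), with 20.6% higher and 19.5% lower. In 48.3% of genes tested the 3 libraries of a stage did not overlap the 3 of the other. Genes named for the size of their change had to meet this condition, so it is no separate result for them. Without E13.5 replicate 1 the count called was 2726, and without E15.5 replicate 3 it was 2540. Counts in the gene lists were read against these shares.

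**Figure D1:**
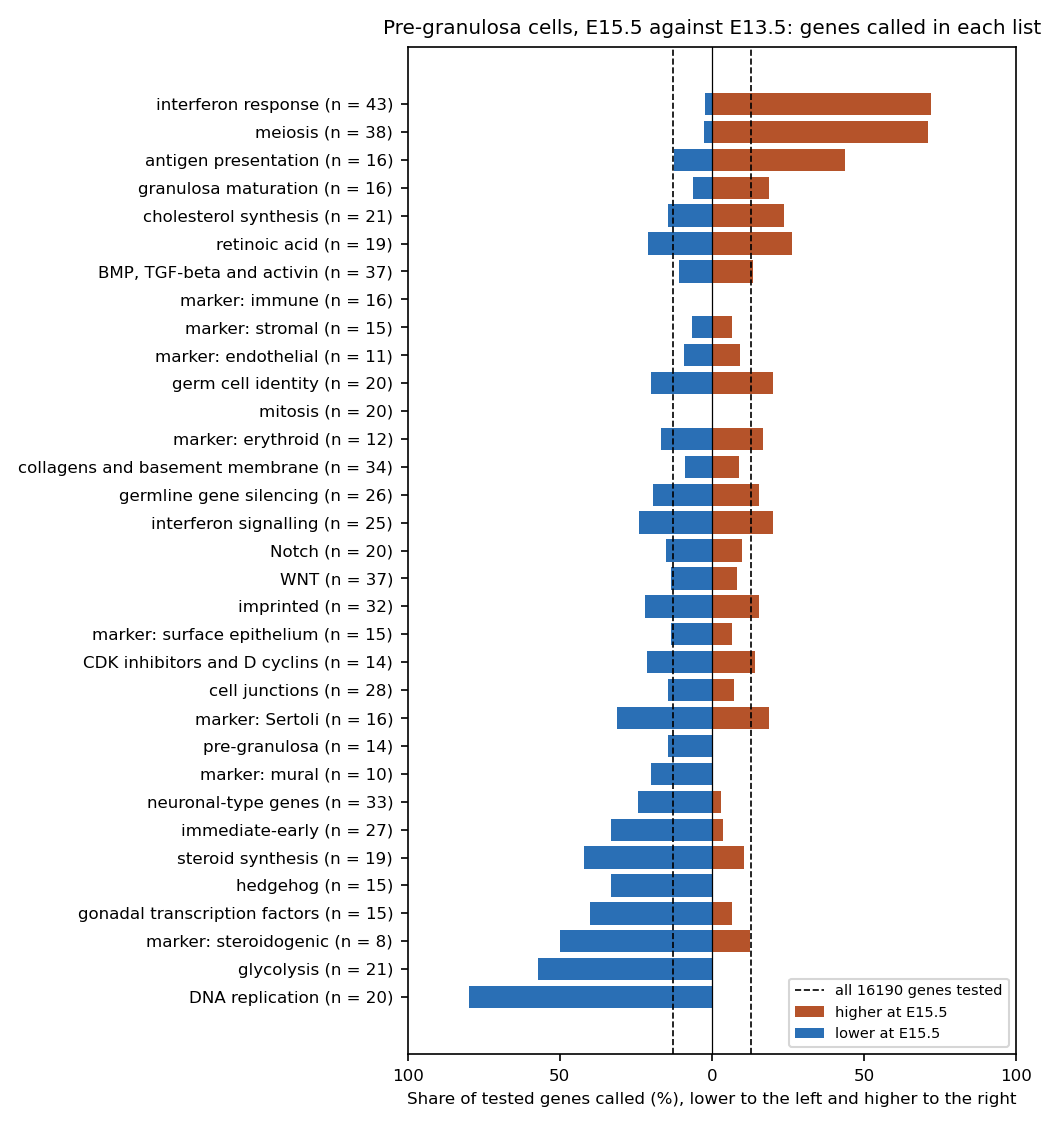
Share of tested genes in each gene list that were called higher (right) or lower (left) at E15.5 in pre-granulosa cells, in percent, with the number of genes tested in brackets. Dashed lines mark the 12.8% of all 16190 genes called in each direction, and the interferon response, meiosis and DNA replication lists lie farthest from them.

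Promoter stretches of 5 genes are shown from the 2 groups with the highest shares of genes called higher, chosen because the gene rose and the stretch holds a motif known for its group. They are the 150 bases before the annotated start in RefSeq (GRCm38.p6), 5′ to 3′ on the gene's strand. Capitals in the first 3 mark the core of the ISRE, which is GAAA, any 2 bases and GAAA again, on either strand, and in the last pair they mark the E-box CACGTG.
Ifit1 (GRCm38.p6, chr19:34640739-34640888, + strand): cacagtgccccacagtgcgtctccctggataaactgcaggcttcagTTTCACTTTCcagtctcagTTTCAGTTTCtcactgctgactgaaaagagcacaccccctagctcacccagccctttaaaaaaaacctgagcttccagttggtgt
Isg15 (GRCm38.p6, chr4:156200819-156200968, - strand): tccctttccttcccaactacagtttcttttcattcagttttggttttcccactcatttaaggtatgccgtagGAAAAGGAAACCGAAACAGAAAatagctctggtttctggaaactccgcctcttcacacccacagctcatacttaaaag
Irgm1 (GRCm38.p6, chr11:48871421-48871570, - strand): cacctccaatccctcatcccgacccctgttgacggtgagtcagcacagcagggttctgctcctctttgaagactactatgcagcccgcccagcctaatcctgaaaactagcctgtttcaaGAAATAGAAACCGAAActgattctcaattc
Sycp3 (GRCm38.p6, chr10:88459437-88459586, + strand): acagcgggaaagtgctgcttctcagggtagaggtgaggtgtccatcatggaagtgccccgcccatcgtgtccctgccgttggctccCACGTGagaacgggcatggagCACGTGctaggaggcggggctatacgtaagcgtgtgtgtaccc
Hormad1 (GRCm38.p6, chr3:95559527-95559676, + strand): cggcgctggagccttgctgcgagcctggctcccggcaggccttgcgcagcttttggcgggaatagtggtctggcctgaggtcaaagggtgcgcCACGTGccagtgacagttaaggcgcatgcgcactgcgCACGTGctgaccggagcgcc
Ifit1 holds 2 matches and Isg15 holds 3 that overlap one another. On either strand within 250 bases before the start, this core was found in 17 of the 32 tested interferon response genes with a promoter sequence (53.1%), against 370 of 12425 tested genes (2.98%). CACGTG was found in 10 of 31 tested meiosis genes (32.3%), against 9.46% of tested genes. TCCCGC, the site type of E2F6, was found in 14 of these 31 (45.2%), against 32.2% of tested genes. Of the interferon response genes called higher, 12 of 23 held the ISRE core (52.2%). Of the meiosis genes called higher, 7 of 21 held CACGTG (33.3%) and 12 of 21 held TCCCGC (57.1%). For the ISRE core and CACGTG these shares are near those of all tested members of the list. A match describes the letters and not the binding of a factor.

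Genes of meiosis rose from low levels. Of 40 listed genes 38 were tested, 27 of them (71.1%) were higher at E15.5, 1 was lower and 10 were not called, against 12.8% of all genes in each direction. Their median log2 fold change was 2.64. The group takes in the synaptonemal complex, cohesin, recombination and telomere attachment.

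Sycp3, the lateral element protein of the synaptonemal complex, had 1.11, 3.07 and 2.27 CPM at E13.5 and 59.2, 78.8 and 101 CPM at E15.5, a 37.1-fold rise (log2 fold change 5.16, SE 0.33, adjusted p = 9.78e-10). Tex12, a protein of the central element, had 0.0741, 0.291 and 0.453 CPM at E13.5 and 11.6, 16.3 and 18 CPM at E15.5 and rose 56-fold (log2 fold change 5.77, SE 0.63, adjusted p = 3.56e-06). For both genes every E15.5 library lay above every E13.5 library, as the rule for naming them required.

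Sycp2, the partner of Sycp3, had 0.0741, 0.332 and 0.151 CPM at E13.5 and 7.55, 11.53 and 15.1 CPM at E15.5. The transverse filament gene Sycp1 had 0.667, 1.16 and 2.19 CPM at E13.5 and 23.7, 25.7 and 30.9 CPM at E15.5. Syce3, another central element gene, had no count in the 3 E13.5 libraries and 4.86, 2.8 and 5.75 CPM at E15.5, at least 19.7-fold higher when 3 counts in the shallowest E13.5 library are taken as the limit. All 3 were called, with adjusted p of 1.35e-05, 4.07e-07 and 8.72e-05 in edgeR.

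Smc1b, the meiotic cohesin subunit, had 2.44, 3.65 and 5.51 CPM at E13.5 and 81, 95.1 and 127 CPM at E15.5 (log2 fold change 4.71, SE 0.31, adjusted p = 1.75e-09). Hormad1, which marks unsynapsed chromosome axes, had 0.222, 0.623 and 0.982 CPM at E13.5 and 15.54, 15.3 and 18 CPM at E15.5 (log2 fold change 4.73, SE 0.45, adjusted p = 2.98e-07). Meioc, which sustains the meiotic programme, had 0.296, 0.457 and 1.51 CPM at E13.5 and 11.3, 18.3 and 22.1 CPM at E15.5 (log2 fold change 4.56, SE 0.51, adjusted p = 2.66e-06). In these genes too the groups did not overlap, as that rule required, and E13.5 replicate 1 was the lowest library of each.

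Terb1, which ties telomeres to the nuclear envelope, had 0.593, 0.291 and 0.529 CPM at E13.5 and 7.29, 10.7 and 12.8 CPM at E15.5 (log2 fold change 4.50, SE 0.33, adjusted p = 9.24e-09). For recombination, Spo11, which cuts the DNA, had 0, 0.249 and 0.227 CPM at E13.5 and 3.99, 6.26 and 7.35 CPM at E15.5, and Dmc1, the strand exchange protein, had 0.37, 0.83 and 1.51 CPM at E13.5 and 5.47, 5.53 and 8.55 CPM at E15.5. Both were called higher, with log2 fold changes of 5.06 and 2.86. Prdm9, which sets recombination hotspots, had 2.89, 4.03 and 3.78 CPM at E13.5 and 14.2, 19 and 23.8 CPM at E15.5. Tex101, a surface protein of germ cells, had 0.444, 0.83 and 0.604 CPM at E13.5 and 22.1, 25.9 and 26.3 CPM at E15.5 (log2 fold change 5.25, SE 0.38, adjusted p = 2.83e-08).

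Rec8 was the one gene of the list called lower, and Stra8 was called higher at a smaller fold than the genes above. Stra8, the retinoic acid target that starts meiosis, had 0.518, 1.66 and 1.44 CPM at E13.5 and 4.17, 3.06 and 5.57 CPM at E15.5 (log2 fold change 1.80, SE 0.60, adjusted p = 0.036). Rec8, the meiotic kleisin, had 73.6, 69.7 and 70.8 CPM at E13.5 and 39, 42.6 and 36.3 CPM at E15.5 and fell (log2 fold change -0.86, SE 0.22, adjusted p = 0.00565). Neither gene had overlapping stages, and Rec8 moved against the 27 genes that rose. Of the 38 tested genes 6 had negative fold changes, the lowest at -0.91 and not called.

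In Sertoli cells 17 of the 38 meiosis genes were also called higher over these days and 1 lower, with a median log2 fold change of 0.81, against 21.3% of all genes called in either direction. By the test of the difference, the step was more positive in pre-granulosa cells for 11 of the 38 and less so for 7, against 25.8% of all genes that differed in either direction.

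Markers of germ cells moved with this group in part. The germ cell helicase Ddx4 had 1.26, 2.66 and 4.76 CPM at E13.5 and 10.5, 14 and 18.3 CPM at E15.5 (log2 fold change 2.31, SE 0.37, adjusted p = 0.000138), and Dazl, an RNA-binding protein of germ cells, had 2.44, 4.36 and 6.12 CPM at E13.5 and 21.4, 28.5 and 31.2 CPM at E15.5 (log2 fold change 2.65, SE 0.44, adjusted p = 0.00019). Within both stages the libraries stood in the same order for Ddx4, Dazl and Tex12. Sycp3 at E13.5 and Hormad1 and Syce3 at E15.5 did not keep this order, and what sets it was not tested.

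Dppa3, another defining germ cell gene, went the other way, with 2.07, 3.9 and 5.82 CPM at E13.5 and 1.3, 0.267 and 1.02 CPM at E15.5 (log2 fold change -2.19, SE 0.62, adjusted p = 0.0125). Pou5f1 had 0.0741, 0.54 and 0.68 CPM at E13.5 and 0.347, 0.2 and 0.356 CPM at E15.5 and Nanos3 had 1.33, 1.54 and 0.906 CPM at E13.5 and 2.08, 1.53 and 2.5 CPM at E15.5, and neither was called. Over the 20 tested germ cell identity genes, 4 were higher (Figla, Mov10l1, Dazl and Ddx4) and 4 lower (Lin28a, Utf1, Dppa3 and Sohlh1). The share of all genes was 12.8% in each direction. In Sertoli cells 11 of the 20 were higher and 0 lower, against 21.3% of all genes called in either direction. The step was less positive in pre-granulosa cells for 9 and more so for 0, against 25.8% of all genes that differed in either direction. The summed level of this list was 65.5 to 86.5 CPM at E13.5 and 94.9 to 122.8 CPM at E15.5, and none of the 5 genes given here with values was at 0 in a whole stage. The part of germ cell RNA in the rise of meiosis genes was not tested, and in bulk samples more cells of a type and more RNA per cell cannot be told apart.

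Per length, mean deposited TPM (transcript abundance scaled for length and depth) at E15.5 was 104 for Sycp3, 25.4 for Tex12, 7.05 for Ddx4, 24.6 for Dazl and 17.7 for Foxl2. At E13.5 Sycp3 had 2.78 TPM, Ddx4 1.4 TPM and Foxl2 8.9 TPM. On this scale Sycp3 passed Foxl2 between the stages. Without E13.5 replicate 1, 23 meiosis genes were called higher, and 23 to 26 when each library was left out in turn. With genes required to have 10 counts in every library, which leaves out genes near 0 at E13.5, 7 were.

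**Figure D2:**
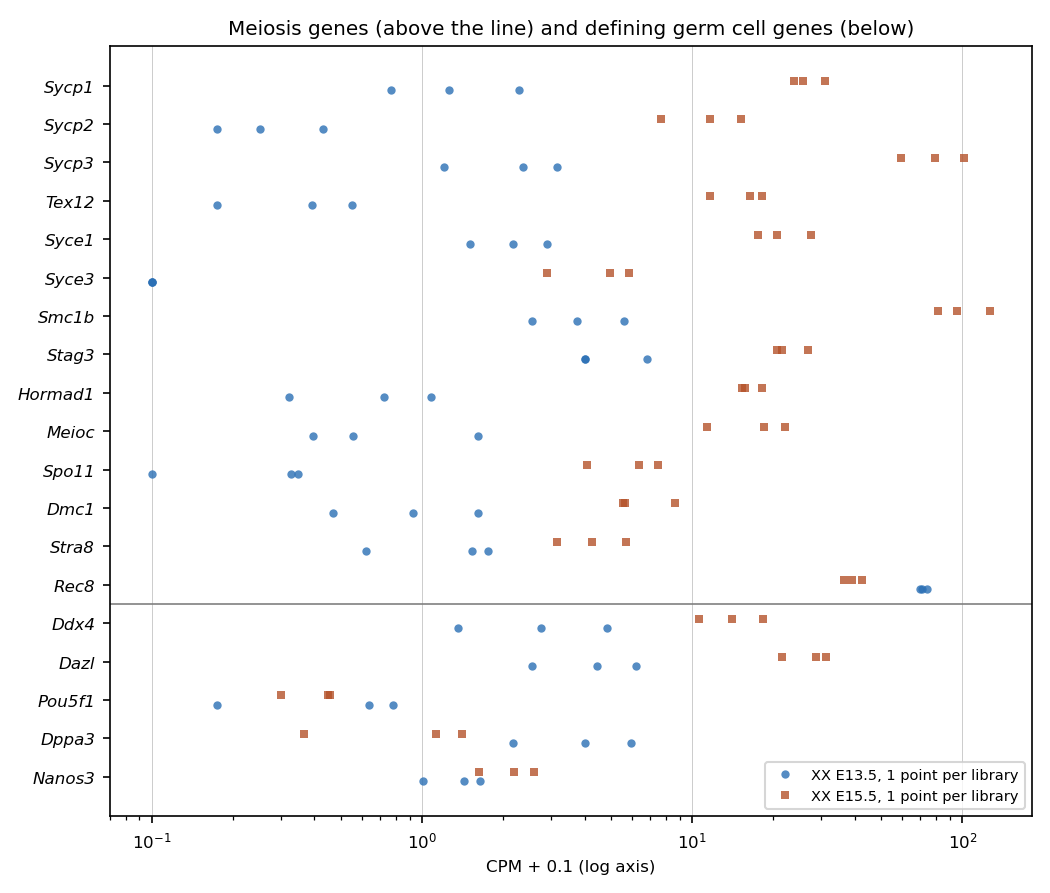
CPM + 0.1 on a log axis in the 3 XX E13.5 libraries (circles) and the 3 XX E15.5 libraries (squares), for 14 meiosis genes above the line and 5 germ cell genes below it. All meiosis genes shown except Rec8 moved to the right at E15.5, as did Ddx4 and Dazl, while Dppa3 moved to the left.

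Of 26 tested genes in the list for silencing of germline genes 4 were higher (15.4%) and 5 lower (19.2%), near the 12.8% of all genes in each direction. Their median log2 fold change was 0.038. The list also holds Tet1, Tet2 and Tet3, which act in DNA demethylation and are not repressors. Uhrf1, the cofactor that brings the maintenance methylase to DNA, had 73.8, 60.1 and 63.3 CPM at E13.5 and 25.2, 31 and 23.1 CPM at E15.5 (log2 fold change -1.32, SE 0.14, adjusted p = 1.8e-06). Dnmt1, the maintenance methylase itself, had 71.3, 61.8 and 67.8 CPM at E13.5 and 35, 42.1 and 30.2 CPM at E15.5 (log2 fold change -0.90, SE 0.16, adjusted p = 0.000327). The stages did not overlap in either gene, and Dnmt3b, Tet1 and Ehmt1 were also called lower.

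Among the 4 that rose, Dnmt3a, a de novo methylase, had 336, 359.9 and 333 CPM at E13.5 and 482, 431 and 482 CPM at E15.5 (log2 fold change 0.44, SE 0.093, adjusted p = 0.00167). Pcgf6, a subunit of the Polycomb-type complex PRC1.6, had 21.8, 23.5 and 18.5 CPM at E13.5 and 32.7, 33.2 and 35.7 CPM at E15.5 (log2 fold change 0.67, SE 0.16, adjusted p = 0.00337). Rybp and Ring1, also of Polycomb complexes, were the other two. Without E15.5 replicate 3 the lower count was 3.

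Genes induced by interferons rose in most of their list. Of 46 listed genes 43 were tested, 31 (72.1%) were higher, 1 was lower and 11 were not called. The share of all genes was 12.8% in each direction. The median log2 fold change of the list was 1.53. Leaving out any 1 library left 26 to 29 higher, with 26 without E13.5 replicate 1. With 10 counts required in every library 12 were higher.

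Ifit1, which binds foreign RNA caps, had 0.296, 0.498 and 0.227 CPM at E13.5 and 18.5, 13.1 and 15.8 CPM at E15.5, a 46.4-fold rise (log2 fold change 5.43, SE 0.61, adjusted p = 2.99e-06). Its relative Ifit3 had 1.41, 1.45 and 1.13 CPM at E13.5 and 19.1, 16.9 and 16.7 CPM at E15.5 (log2 fold change 3.71, SE 0.49, adjusted p = 3.21e-05), and the ubiquitin-like Isg15 had 0.667, 0.706 and 0.151 CPM at E13.5 and 8.25, 7.8 and 7.13 CPM at E15.5 (log2 fold change 3.86, SE 0.54, adjusted p = 3.87e-05). All 3 were under 2 CPM in each E13.5 library and above 7 CPM in each E15.5 library.

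Further members rose from higher starting levels. Usp18, which removes ISG15 and damps the receptor, had 2.15, 1.62 and 1.44 CPM at E13.5 and 12.8, 11.4 and 8.51 CPM at E15.5 (log2 fold change 2.65, SE 0.43, adjusted p = 0.000175). Irgm1, an immunity GTPase, had 8.96, 6.93 and 7.85 CPM at E13.5 and 20.6, 23.2 and 22.4 CPM at E15.5 (log2 fold change 1.48), and the related GTPase Igtp had 22.1, 24.9 and 19.5 CPM at E13.5 and 56.3, 54.4 and 50 CPM at E15.5 (log2 fold change 1.27). Ifih1, a sensor of double-stranded RNA, had 1.19, 1.78 and 2.11 CPM at E13.5 and 9.12, 7.6 and 7.97 CPM at E15.5 (log2 fold change 2.27, SE 0.33, adjusted p = 5.7e-05). In none of these did the stages overlap.

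2 genes of this kind fell. Oas3, an oligoadenylate synthetase, had 0.593, 0.498 and 0.68 CPM at E13.5 and 0, 0.0666 and 0 CPM at E15.5 (adjusted p = 0.000611 in edgeR), with 1 count in all at E15.5. Ifitm1, a membrane protein that is interferon-induced in many cells and also marks early germ cells, is not in the list and was named for its drop in level, from 1067, 1178 and 1083 to 513, 401 and 505 CPM (log2 fold change -1.23, SE 0.20, adjusted p = 0.000136).

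The upstream pathway moved in both directions. Of 25 tested signalling genes 5 were higher and 6 lower, against 12.8% of all genes in each direction. Irf9, an interferon regulatory factor, had 30.5, 25.6 and 27.7 CPM at E13.5 and 44.1, 47.1 and 48.7 CPM at E15.5 (log2 fold change 0.74, SE 0.17, adjusted p = 0.00364). Irf2, the kinase gene Jak2 and the RNA sensor Tlr3 also rose.

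Ifnar1, a chain of the type I interferon receptor, fell, with 762, 674 and 664 CPM at E13.5 and 433, 458 and 354 CPM at E15.5 (log2 fold change -0.75, SE 0.12, adjusted p = 0.000103). The other chain, Ifnar2, had 53.8, 54.4 and 51.4 CPM at E13.5 and 56.8, 50 and 49.7 CPM at E15.5, and its stages overlapped. Tyk2, Jak1, Ifngr2, Irf5 and the feedback inhibitor Socs3 also fell. The lower count was 3 without E15.5 replicate 1 and 3 without E15.5 replicate 3. The ligand genes Ifnb1, Ifng and Ifne were too low to be tested.

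MHC class I and its loading machinery gave 7 higher and 2 lower of 16 tested, against 12.8% of all genes in each direction. H2-D1, a classical class I chain, had 4.07, 6.27 and 5.29 CPM at E13.5 and 25.6, 35.6 and 32.2 CPM at E15.5 (log2 fold change 2.56, SE 0.24, adjusted p = 3.22e-07), and Psmb9, a proteasome subunit that cuts peptides for class I, had 0.889, 1.04 and 1.74 CPM at E13.5 and 3.73, 2.27 and 2.5 CPM at E15.5. B2m, the light chain, had 39.3, 43.1 and 43 CPM at E13.5 and 41.2, 48.6 and 50.7 CPM at E15.5 with overlapping stages and was not called. H2-Q7 and H2-Q4 were the lower genes, and reads of class I genes are uncertain because near-identical copies can share them. The higher count was 4 without E13.5 replicate 1 and 4 without E15.5 replicate 1, and the lower count was 1 without any of E13.5 replicates 2 and 3 and E15.5 replicates 2 and 3.

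Leukocyte markers did not rise with these genes. None of 16 was called in edgeR, against 25.6% of all genes in either direction. An unadjusted p under 0.05 was found for 0, and 4 were lower in the fit of the 6 libraries alone. Their summed level was 77.0 to 92.1 CPM at E13.5 and 58.6 to 69.1 CPM at E15.5, with Ptprc at 2.37, 1.99 and 1.06 CPM at E13.5 and 0.781, 1.33 and 1.96 CPM at E15.5.

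**Figure D3:**
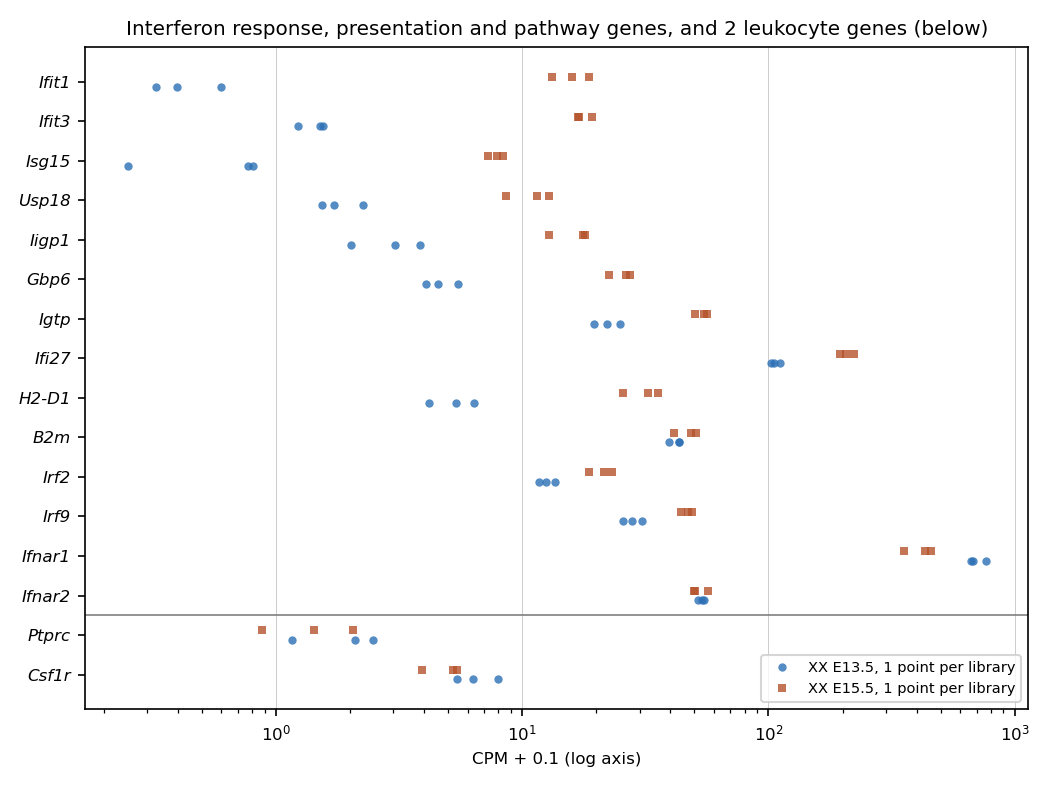
CPM + 0.1 on a log axis in the XX E13.5 libraries (circles) and XX E15.5 libraries (squares) for 14 interferon response, presentation and pathway genes, and for the leukocyte genes Ptprc and Csf1r below the line. The response genes moved to the right at E15.5, Ifnar1 to the left, and B2m, Ifnar2 and Ptprc overlap between stages.

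DNA replication genes fell together. Of 20 tested, 16 (80.0%) were lower, 0 were higher and 4 were not called, against 12.8% of all genes in each direction. All 20 had negative fold changes, and the median was -0.75. The helicase gene Mcm7 had 158, 147 and 147 CPM at E13.5 and 74.3, 72.7 and 67 CPM at E15.5 (log2 fold change -1.08, SE 0.074, adjusted p = 2.72e-09), and Mcm2 of the same ring had 214, 183 and 188 CPM at E13.5 and 68.3, 86.8 and 58.4 CPM at E15.5 (log2 fold change -1.46, SE 0.12, adjusted p = 3.27e-08). Pcna, the sliding clamp, had 141, 148 and 166 CPM at E13.5 and 116, 107 and 123 CPM at E15.5 (log2 fold change -0.40, SE 0.11, adjusted p = 0.00957). The stages did not overlap in any of these, and 12 to 15 genes of the list were called lower when 1 library was left out.

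Mitosis genes gave another picture. None of 20 was called in edgeR, against 25.6% of all genes in either direction. An unadjusted p under 0.05 was found for 1, and DESeq2 called 1 higher. The median log2 fold change was -0.20. Top2a, which untangles chromosomes, had 67.2, 79.4 and 90.8 CPM at E13.5 and 70.8, 82.8 and 96.5 CPM at E15.5, with overlapping stages, and the proliferation marker Mki67 had 12.4, 17.3 and 20 CPM at E13.5 and 20.2, 21.9 and 28 CPM at E15.5. The fit of the 6 libraries alone called 3 higher and 6 lower, with Mki67 among the higher (adjusted p = 0.0481) and Ccnb1 among the lower (adjusted p = 0.0106).

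Of 14 tested CDK inhibitors and cyclins 2 were higher (14.3%) and 3 lower (21.4%), against 12.8% of all genes in each direction. Cdkn1c, which encodes p57, had 588, 507 and 391 CPM at E13.5 and 2022, 1925 and 2551 CPM at E15.5, a 4.37-fold rise (log2 fold change 2.13, SE 0.55, adjusted p = 0.00841). Cdkn1b, which encodes p27, had 191, 211 and 237 CPM at E13.5 and 281, 251 and 430.3 CPM at E15.5 and was not called (adjusted p = 0.12). At earlier stages the XX mean of Cdkn1c was 3078 ± 1261 CPM at E11.5 and 2766 ± 1318 CPM at E12.5 (SD, n = 3).

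Cyclin genes split. Ccnd2 had 689.8, 731 and 718 CPM at E13.5 and 943, 861 and 916 CPM at E15.5 and rose (log2 fold change 0.35, SE 0.095, adjusted p = 0.0107), a call lost without E13.5 replicate 1, where the list has 1 higher gene. Ccnd1 had 69.7, 67.6 and 72.5 CPM at E13.5 and 41.3, 40.2 and 36.3 CPM at E15.5 and fell (log2 fold change -0.83, SE 0.16, adjusted p = 0.000584), and Ccne1 and Cdkn1a, which encodes p21, fell as well.

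Cell cycle genes rose in Sertoli cells over the same days. All 20 replication genes and all 20 mitosis genes were called in them, each one higher at E15.5, against 21.3% of all genes called in either direction. The step itself differed between the sexes for 20 replication and 16 mitosis genes, each of them lower in pre-granulosa cells. Over all genes 4184 (25.8%) differed in either direction. Mcm7 went from 202 ± 15.2 CPM to 318 ± 8.73 CPM in Sertoli cells (SD, n = 3), and its difference of steps was -1.74, SE 0.10, adjusted p = 9.07e-10. Chaf1b, a chromatin assembly factor, had 49, 48.6 and 55 CPM at E13.5 and 27, 24.3 and 25.4 CPM at E15.5 in pre-granulosa cells and a difference of -2.03, SE 0.13, adjusted p = 1.9e-09.

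**Figure D4:**
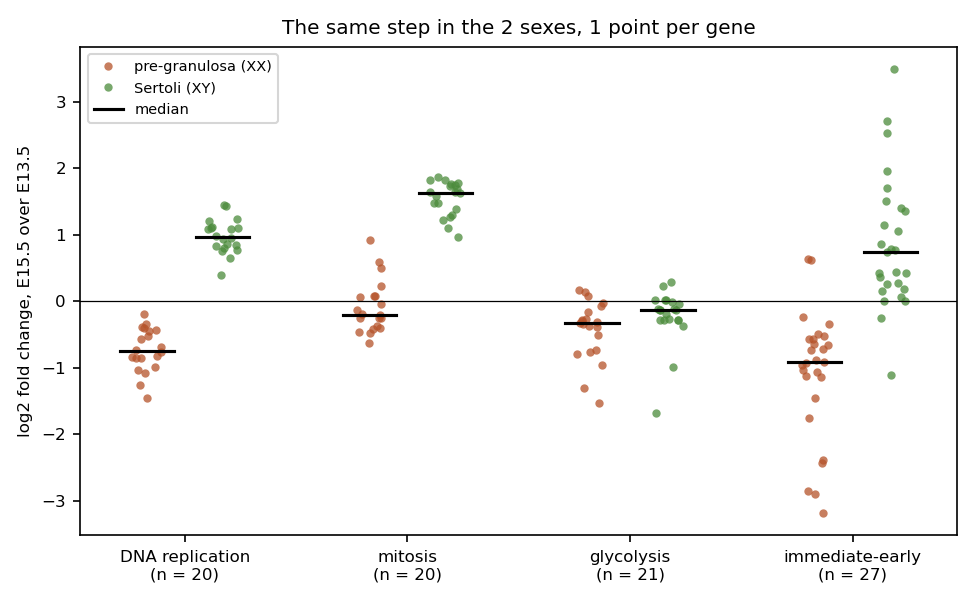
Log2 fold change from E13.5 to E15.5 for each tested gene of 4 lists, in pre-granulosa cells and in Sertoli cells, with the median as a bar. Replication genes lie below 0 in pre-granulosa cells and above 0 in Sertoli cells, and the immediate-early medians have opposite signs.

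3 other genes had among the smallest p-values for the difference between the sexes. M1ap, a gene needed for meiosis in the male germ line, had 2, 3.24 and 3.17 CPM at E13.5 and 49.8, 58.7 and 71.2 CPM at E15.5 in pre-granulosa cells, while its Sertoli mean went from 14.4 ± 0.297 CPM to 4.7 ± 1 CPM (difference 6.03, SE 0.32, adjusted p = 1.64e-10). Serpini1, a secreted protease inhibitor, had 71.8, 82.9 and 79.7 CPM at E13.5 and 94.9, 85.6 and 95.3 CPM at E15.5 and was not called in pre-granulosa cells, and fell in Sertoli cells from 32.2 ± 1.25 CPM to 6.12 ± 0.271 CPM (difference 2.63, SE 0.17, adjusted p = 1.9e-09). Myo7a, a motor protein, had 21.1, 17.1 and 19 CPM at E13.5 and 8.51, 9 and 8.15 CPM at E15.5 and rose in Sertoli cells (difference -2.06, SE 0.14, adjusted p = 4.25e-09).

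Of 14 tested genes of the pre-granulosa programme 0 were higher and 2 (14.3%) were lower, against 12.8% of all genes in each direction. The lower share is near that of all genes. An unadjusted p under 0.05 was found for 5 of the 14. Lef1, a WNT effector and target, had 204, 193 and 185 CPM at E13.5 and 98.1, 102 and 76.4 CPM at E15.5 (log2 fold change -1.08, SE 0.18, adjusted p = 0.000186), and the ligand Bmp2 had 83.1, 89.7 and 96.1 CPM at E13.5 and 48.8, 44.2 and 42.9 CPM at E15.5 (log2 fold change -0.99, SE 0.26, adjusted p = 0.00873). Both were lower in every E15.5 library than in any E13.5 library.

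Foxl2 and Fst were 1.99-fold and 1.51-fold higher in mean with no overlap, but were not called (adjusted p = 0.254 and 0.267). In the fit of the 6 libraries alone both passed (adjusted p = 0.000298 and 0.000247), and the list had 5 higher and 2 lower. Their XX E11.5 means, whose libraries enter the shared fit, were 14.2 ± 18.2 CPM and 241 ± 206 CPM. The ligand Wnt4 had 87.7, 101 and 87 CPM at E13.5 and 78.7, 74 and 82.8 CPM at E15.5. Rspo1, which raises WNT signalling, had 32.6, 29.9 and 25.8 CPM at E13.5 and 36.9, 28.9 and 32.7 CPM at E15.5, and neither gene was called.

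Genes of later granulosa cells gave 3 higher (18.8%) and 1 lower (6.25%) of 16, against 12.8% of all genes in each direction. Prlr, the prolactin receptor, had 13.48, 19 and 16.2 CPM at E13.5 and 90.9, 90.5 and 101 CPM at E15.5 (log2 fold change 2.53, SE 0.32, adjusted p = 1.12e-05). Esr1, an estrogen receptor, had 43.3, 44.5 and 47.6 CPM at E13.5 and 72.3, 76.6 and 76.1 CPM at E15.5 (log2 fold change 0.73, SE 0.22, adjusted p = 0.0162). Neither gene had overlapping stages. The fall was in Nr4a1, and the fit of the 6 libraries alone had 6 higher.

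Of 15 tested transcription factors of the early gonad 6 were lower (40.0%), 1 was higher (6.67%) and 8 were not called, against 12.8% of all genes in each direction. Nr5a1, the steroidogenic factor, had 164, 124 and 132 CPM at E13.5 and 73.7, 90.6 and 54.2 CPM at E15.5 (log2 fold change -0.94, SE 0.17, adjusted p = 0.000535). Wt1, a factor of the gonadal epithelium, had 605, 558 and 572 CPM at E13.5 and 419, 482 and 395 CPM at E15.5 (log2 fold change -0.42, SE 0.12, adjusted p = 0.0118), and Dmrt1, a testis factor that is also made in early ovaries, had 5.41, 6.23 and 6.49 CPM at E13.5 and 1.48, 1.13 and 1.38 CPM at E15.5 (log2 fold change -2.19, SE 0.32, adjusted p = 6.06e-05). Lhx9, Nr0b1 and Cbx2 were the other lower genes, and Osr1 was the higher one.

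The genes with the largest rise in level were led by Cdkn1c. Cpe, which trims peptide hormones, had 561, 531 and 418 CPM at E13.5 and 1337, 1153 and 1294 CPM at E15.5 (log2 fold change 1.32, SE 0.16, adjusted p = 5e-06), and Clu, a secreted chaperone, had 409, 383 and 353 CPM at E13.5 and 993, 1021 and 851 CPM at E15.5 (log2 fold change 1.32, SE 0.21, adjusted p = 0.000156). Sdc4, a cell surface proteoglycan, had 345, 396 and 417 CPM at E13.5 and 907, 756 and 1296 CPM at E15.5, and Enpp2, which makes lysophosphatidic acid, had 324, 355 and 314 CPM at E13.5 and 876, 800.2 and 886 CPM at E15.5. All were at least 2.5-fold higher in mean at E15.5. A change of at least 2-fold and no overlap were conditions for naming them.

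Calb1, a calcium-binding protein best known from neurons, had 139, 126 and 134 CPM at E13.5 and 599, 536 and 531 CPM at E15.5, a 4.17-fold rise (log2 fold change 2.06, SE 0.12, adjusted p = 3.18e-10). It was the single gene called higher among 33 tested neuronal-type genes (3.03%), of which 8 were lower (24.2%), against 12.8% of all genes in each direction. Its Sertoli means were 0.0954 CPM and 0.073 CPM. Gap43, of growing axons, had 11.4, 12.8 and 15.6 CPM at E13.5 and 2, 1.8 and 1.2 CPM at E15.5 (log2 fold change -3.03, SE 0.29, adjusted p = 4.39e-07). The lower count was 5 without E13.5 replicate 3, without E15.5 replicate 1 or without E15.5 replicate 3.

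Adrenal-type steroid genes nearly vanished. Of 19 tested genes of steroid synthesis 8 were lower (42.1%) and 2 were higher (10.5%), against 12.8% of all genes in each direction. Cyp11b1, which makes corticosterone, had 14.1, 14.1 and 10.8 CPM at E13.5 and no count at E15.5, at least 49.8-fold lower when 3 counts in the shallowest E15.5 library are taken as the limit. Cyp21a1, the adrenal 21-hydroxylase, had 3.26, 3.32 and 4.15 CPM at E13.5 and no count at E15.5, at least 13.7-fold lower.

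Cyp11a1, which makes pregnenolone from cholesterol, had 28.6, 22.5 and 22.4 CPM at E13.5 and 1.04, 0.8 and 0.178 CPM at E15.5 (log2 fold change -5.37, SE 0.49, adjusted p = 2.95e-07). Star, which carries cholesterol into mitochondria, had 44.4, 37.7 and 42.7 CPM at E13.5 and 12.8, 14.6 and 11.3 CPM at E15.5 (log2 fold change -1.69, SE 0.19, adjusted p = 3.16e-06). The corticotropin receptor gene Mc2r had 2.67, 3.32 and 4.98 CPM at E13.5 and 0.174, 0.133 and 0.0445 CPM at E15.5, and Scarb1, Por and Hsd3b6 also fell. All these E15.5 libraries lay below the E13.5 ones.

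Hsd3b1, a dehydrogenase of steroid synthesis, moved against them, with 123, 126 and 117 CPM at E13.5 and 295, 265 and 276 CPM at E15.5 (log2 fold change 1.20, SE 0.38, adjusted p = 0.0252). That call was lost without any 1 of the E13.5 libraries and without E15.5 replicate 1 or 3, where the steroid list has 1 higher gene. The summed level of the 8 steroidogenic cell markers was 198.3 to 210.7 CPM at E13.5 and 293.1 to 323.1 CPM at E15.5, carried mainly by Hsd3b1.

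Levels of the adrenal-type genes did not run steadily with stage. Cyp11b1 had 14.6 ± 20.9 CPM at E11.5, 0.426 ± 0.394 CPM at E12.5, 13 ± 1.89 CPM at E13.5 and 0 at E15.5 (SD, n = 3). The neuroendocrine genes Chgb, a granin, and Rgs4, a regulator of G protein signalling, were likewise lower at E12.5 than at E13.5, with Chgb at 2.76 ± 0.646 CPM against 28.8 ± 6.16 CPM. From E13.5 to E15.5 Chgb had 29.3, 22.5 and 34.7 CPM at E13.5 and 0.434, 0.267 and 0.267 CPM at E15.5 (log2 fold change -6.52, SE 0.90, adjusted p = 3.86e-05), and Rgs4 had 16.3, 12.8 and 15.3 CPM at E13.5 and 0.174, 0.0666 and 0.401 CPM at E15.5 (log2 fold change -5.91, SE 0.64, adjusted p = 2.4e-06). Whether RNA of adrenal or chromaffin-type cells took part in these values was not tested.

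**Figure D5:**
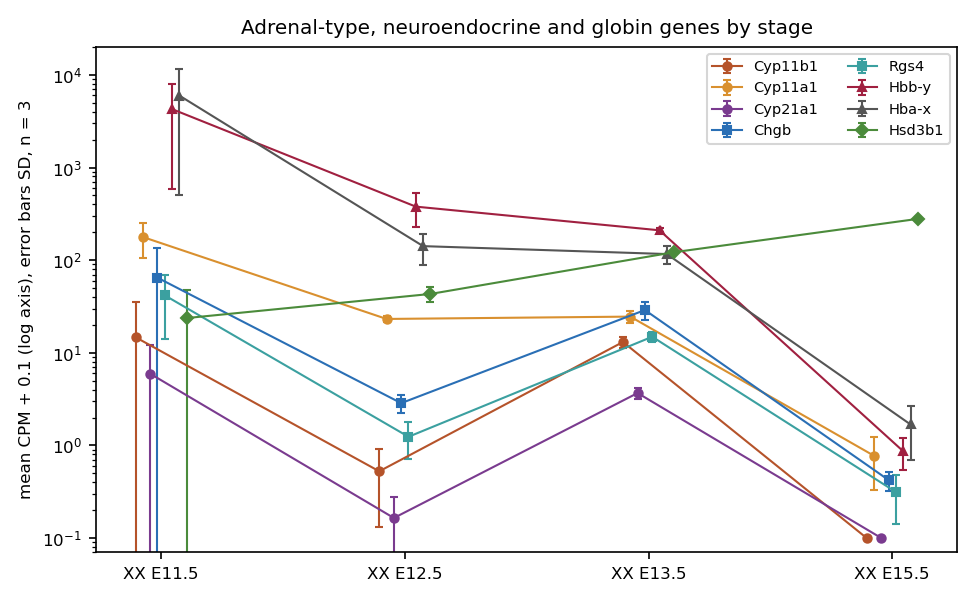
Mean CPM + 0.1 on a log axis in XX cells at 4 stages, with SD as error bars (n = 3), for adrenal-type, neuroendocrine and embryonic globin genes and Hsd3b1. Error bars that leave the lower edge reach below 0, and all genes but Hsd3b1 were lowest at E15.5.

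Embryonic globins fell as well. Hbb-y, an embryonic beta-type globin, had 201, 222 and 206 CPM at E13.5 and 0.868, 0.4 and 1.02 CPM at E15.5, 275-fold lower at E15.5 (log2 fold change -8.05, SE 0.81, adjusted p = 1.57e-06). Hba-x, the embryonic alpha-type globin, had 100.1, 144 and 104 CPM at E13.5 and 0.521, 1.73 and 2.5 CPM at E15.5 (log2 fold change -6.07, SE 0.82, adjusted p = 3.87e-05). Red cell precursor genes were split, with 2 higher and 2 lower of 12, which is 16.7% in each direction against 12.8% of all genes. Their summed level was 769.7 to 910.9 CPM at E13.5 and 332.0 to 440.8 CPM at E15.5. The part of red cell RNA in the globin values was not tested. Without E13.5 replicate 3 no gene of this list was higher, and without any other library 1 was.

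Of 27 tested immediate-early and stress genes 9 were lower (33.3%), 1 was higher (3.7%) and 17 were not called, against 12.8% of all genes in each direction. Their median log2 fold change was -0.91. Hspa1a, a heat shock protein, had 1706, 1820 and 1740 CPM at E13.5 and 231, 302 and 193 CPM at E15.5 (log2 fold change -2.86, SE 0.51, adjusted p = 0.000489), and its reads may be shared with the near-identical Hspa1b. Ccn1, a matrix protein induced within minutes of stimulation, had 778, 892 and 1088 CPM at E13.5 and 195, 221 and 230.0 CPM at E15.5 (log2 fold change -2.09, SE 0.51, adjusted p = 0.00535). Arc, an activity-induced gene, had 27.7, 26.3 and 40.2 CPM at E13.5 and 2.08, 6.26 and 1.74 CPM at E15.5 (log2 fold change -3.23, SE 0.73, adjusted p = 0.00291). Stages did not overlap in these genes, which was a condition for naming them.

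Jun had 2517, 2768 and 2885 CPM at E13.5 and 1275, 1631 and 1100 CPM at E15.5 and Dusp1, a phosphatase of MAP kinases, had 1325, 1660 and 1782 CPM at E13.5 and 666, 732 and 763 CPM at E15.5. No overlap was again a condition for naming them. Their calls (adjusted p = 0.0443 and 0.0415) were lost for Jun without any 1 library except E15.5 replicate 2, where it stayed called, and for Dusp1 without any 1 of the 6. The higher gene, Fosl2, lost its call without E13.5 replicate 1 or 3 or E15.5 replicate 2. Without E13.5 replicate 2 the list had 5 lower genes, and without E15.5 replicate 1 or 3 it had 4. The fit of the 6 libraries alone had 20 lower and 2 higher. Genes of this kind also respond to tissue dissociation and sorting, whose part was not tested.

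Other genes with large falls were Cpa1, a carboxypeptidase, with 64.9, 63.4 and 57.5 CPM at E13.5 and 4.6, 4.93 and 6.59 CPM at E15.5 (log2 fold change -3.50, SE 0.21, adjusted p = 3.18e-10), and Ibsp, a bone matrix protein, with 20.5, 19.4 and 27.7 CPM at E13.5 and 2.08, 1.67 and 2.32 CPM at E15.5 (log2 fold change -3.46, SE 0.35, adjusted p = 7.85e-07). Fam181b had 14.9, 12.49 and 12.7 CPM at E13.5 and 0.955, 1 and 1.34 CPM at E15.5 (log2 fold change -3.56, SE 0.37, adjusted p = 1.36e-06). Each was more than 11-fold lower in mean.

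Glycolysis genes fell in 12 of 21 cases (57.1%) and 0 were higher, against 12.8% of all genes in each direction. Their median log2 fold change was -0.33. Hk1, which phosphorylates glucose in the first step of the pathway, had 69.7, 56.6 and 53.3 CPM at E13.5 and 22.8, 30.4 and 20.1 CPM at E15.5 (log2 fold change -1.30, SE 0.18, adjusted p = 2.72e-05), and Pkm, of its last step, had 1985, 1814 and 1740 CPM at E13.5 and 1134, 1183 and 960.2 CPM at E15.5 (log2 fold change -0.76, SE 0.094, adjusted p = 9.25e-06). Ldha, which makes lactate, had 600.4, 549 and 534 CPM at E13.5 and 463, 449 and 433 CPM at E15.5 (log2 fold change -0.32, SE 0.10, adjusted p = 0.0221). These changes were mostly under 2-fold, and 7 genes were lower without E15.5 replicate 3.

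Signalling pathways were near the background or mixed. In WNT signalling 3 of 37 genes were higher and 5 lower, against 12.8% of all genes in each direction. The ligand Wnt9a had 27.2, 20.8 and 22.3 CPM at E13.5 and 4.43, 7.33 and 4.05 CPM at E15.5 (log2 fold change -2.15). The ligand Wnt5a had 26.6, 30.8 and 32.5 CPM at E13.5 and 10.8, 15.1 and 12.7 CPM at E15.5 (log2 fold change -1.22). Both fell, as did the secreted inhibitor Wif1 (log2 fold change -2.80, SE 0.46, adjusted p = 0.000185). Ctnnb1, which encodes beta-catenin, had 225, 230.3 and 213 CPM at E13.5 and 323, 284 and 316 CPM at E15.5 (log2 fold change 0.46, SE 0.10, adjusted p = 0.0022). The higher count was 1 without E13.5 replicate 1.

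In BMP, TGF-beta and activin signalling 5 of 37 genes were higher and 4 lower, against 12.8% of all genes in each direction. The ligand Bmp3 rose from under 1 CPM, with 0.593, 0.124 and 0.68 CPM at E13.5 and 2.34, 1.87 and 2.5 CPM at E15.5. The ligand Gdf10 did so too, with 0.815, 0.291 and 0.604 CPM at E13.5 and 2.26, 1.73 and 1.65 CPM at E15.5. The ligand Bmp7 had 28.1, 27 and 24.7 CPM at E13.5 and 17.6, 19.3 and 15.6 CPM at E15.5 and fell (log2 fold change -0.60, SE 0.18, adjusted p = 0.0161). The higher count was 3 without E13.5 replicate 2 or 3 or E15.5 replicate 1, and the lower count was 2 without E13.5 replicate 1 or E15.5 replicate 3.

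Among 20 Notch genes, 2 were higher and 3 lower, against 12.8% of all genes in each direction. The target Hey1 had 53, 50.3 and 44.9 CPM at E13.5 and 17.8, 19.5 and 18.4 CPM at E15.5 (log2 fold change -1.41, SE 0.10, adjusted p = 9.63e-09), while the target Hes1 had 112, 97.8 and 91.8 CPM at E13.5 and 191, 156 and 179 CPM at E15.5 (log2 fold change 0.80, SE 0.23, adjusted p = 0.0162). The higher count was 0 without E13.5 replicate 2 or 3 or E15.5 replicate 1 or 3 and 1 without E13.5 replicate 1. Both targets had separate stages and opposite directions.

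No hedgehog gene of 15 was higher and 5 (33.3%) were lower, against 12.8% of all genes in each direction. Gli2, a transcription factor of the pathway, had 3.26, 3.36 and 4.08 CPM at E13.5 and 1.04, 0.866 and 1.34 CPM at E15.5 (log2 fold change -1.69, SE 0.44, adjusted p = 0.00709), and the receptor Ptch1, a general target, had 21.9, 21.5 and 31 CPM at E13.5 and 25.1, 24.8 and 23 CPM at E15.5 with overlapping stages. The lower count was 1 without E13.5 replicate 1 or E15.5 replicate 3 and 2 without E13.5 replicate 2, E13.5 replicate 3 or E15.5 replicate 1. It was 3 with no filter beyond 1 count, 2 with 10 counts in every library, 0 by limma on log2(TPM + 1) and 2 on log2(TPM + 0.1), and the fit of the 6 libraries alone had 1 higher.

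Of 19 tested genes of retinoic acid metabolism and binding, 5 were higher (26.3%) and 4 lower (21.1%), against 12.8% of all genes in each direction. Aldh1a1, which makes retinoic acid, had 173, 174 and 156 CPM at E13.5 and 354, 326 and 337 CPM at E15.5 (log2 fold change 1.02, SE 0.23, adjusted p = 0.0026), and Dhrs3, which lowers its precursor, had 467, 494 and 476 CPM at E13.5 and 909, 705 and 965 CPM at E15.5 (log2 fold change 0.84, SE 0.14, adjusted p = 0.000162). Crabp2, which carries retinoic acid to the nucleus, had 11.2, 9.76 and 10.8 CPM at E13.5 and 1.56, 2.07 and 1.96 CPM at E15.5 (log2 fold change -2.48, SE 0.19, adjusted p = 1.68e-08), and Stra6, a retinol uptake receptor, had 24.4, 20.5 and 19.3 CPM at E13.5 and 7.55, 10.6 and 6.99 CPM at E15.5 (log2 fold change -1.35, SE 0.36, adjusted p = 0.00905). The higher count was 3 without E13.5 replicate 2 or 3 or E15.5 replicate 2 or 3, and the lower count was 2 without E15.5 replicate 3.

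Imprinted genes had 5 higher (15.6%) and 7 lower (21.9%) of 32, against 12.8% of all genes in each direction. Besides Cdkn1c, Grb10, a growth inhibitor, had 543, 461 and 534 CPM at E13.5 and 194, 254 and 192 CPM at E15.5 (log2 fold change -1.27, SE 0.25, adjusted p = 0.00113), and Peg3, a zinc finger factor, had 3073, 3097 and 3074 CPM at E13.5 and 1559, 1860 and 1361 CPM at E15.5 (log2 fold change -0.95, SE 0.20, adjusted p = 0.00181). Igf2, a fetal growth factor, had 202, 227 and 230.2 CPM at E13.5 and 159, 127 and 144 CPM at E15.5 (log2 fold change -0.62, SE 0.15, adjusted p = 0.00463). Of these 4 genes, Cdkn1c alone rose.

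Markers of other somatic cells were counted too, against the 12.8% of all genes called in each direction. Of 15 stromal markers 1 was higher (Lum, 2.3, 5.02 and 6.64 CPM at E13.5 and 19, 29.3 and 37 CPM at E15.5) and 1 lower, and of 10 mural markers 0 were higher and 2 lower (Rgs5 and Myh11). The mural markers summed to 81.2 to 101.6 CPM at E13.5 and 44.38 to 50.03 CPM at E15.5, with no overlap. Of 11 endothelial markers 1 was higher and 1 lower. Krt19, a keratin of the surface epithelium, had 22.4, 21.2 and 22.1 CPM at E13.5 and 82.9, 99.1 and 77.2 CPM at E15.5 (log2 fold change 1.98, SE 0.34, adjusted p = 0.000282). It was the one gene called higher among 15 surface epithelium markers, of which Sprr2d and Wt1 were lower and 12 were not called. The fit of the 6 libraries alone had 6 higher and 2 lower, and 2 were higher with the replicate number as a block. Lum lost its call without E13.5 replicate 1 or 2 or E15.5 replicate 3, the endothelial rise was lost without any 1 library, and the endothelial fall without E13.5 replicate 1 or E15.5 replicate 1 or 3. The stromal list had 2 lower genes without E15.5 replicate 2. Sertoli markers had 3 higher (18.8%) and 5 lower (31.2%) of 16, and Amh, the defining Sertoli hormone, was at most 0.296 CPM in any of the 6 libraries. The Sertoli markers summed to 504.7 to 519.7 CPM at E13.5 and 807.9 to 844.3 CPM at E15.5, with no overlap. Their median log2 fold change was -0.043, with 7 genes positive and 8 negative, so the sum does not show a rise of the list as a whole. Without any 1 E13.5 library or without E15.5 replicate 3, 3 Sertoli markers were lower.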

How the data were processed

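Polyadenylated RNA of sorted fetal gonad cells was sequenced after cDNA amplification, per the labels' protocols, with no molecular identifiers described. The authors deposited estimated counts per gene, of which 17.5% of values were not whole; they were rounded. The authors also deposited TPM values. The submitters' processing notes name the build mm10; the aligner, the counting program and the use of strand are not given in the sources used here, so overlapping, antisense and near-identical genes are uncertain.

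Of 32040 symbols, 16190 passed filterByExpr. Counts of all 24 libraries were fitted in 8 groups with edgeR 4.0.16 (R 4.3.3; TMM scaling, robust quasi-likelihood test, 16 residual degrees of freedom), and p-values were adjusted by Benjamini-Hochberg over all genes, with calls at an adjusted p under 0.05. Adjusted p and SE in the text come from this fit unless another is named. CPM use TMM-scaled library sizes. The difference of the step between the sexes is the XX change minus the XY change. Alternatives used DESeq2 1.42.0 and limma 3.58.1 on log2(TPM + 1), other filters, the 6 libraries alone, and each library left out. The calling steps were tested on simulated data.

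Genes were named when called, not overlapping and at least 10 CPM in the higher group. These were the 10 largest folds in each direction and, at 2-fold or more, the 5 largest differences in CPM in each direction; for the difference between the sexes, the 5 smallest p. Sex-linked marker genes and unnamed or pseudogene models were left out. Genes of the lists were also named. A few list genes are not reported here by name. The members and lists were chosen with earlier results of these data known. Coordinates and promoters are from RefSeq for GRCm38.p6, and motifs were searched in 250 bases before the start.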

Additional observations from a re-analysis of the deposited data

Results flagged for a closer look

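The step from E13.5 to E15.5 differed between pre-granulosa and Sertoli cells for each of the 27 genes given here, by the test of the difference itself in edgeR (adjusted p under 0.05 over all genes). These are Calb1 and those genes, chosen by size of change or by the p of this difference, that passed. M1ap, Mcm7, Serpini1, Chaf1b and Myo7a were chosen by this same p, so passing is no separate result for them. Tex12, Sycp2, Ifit1, Tex101, Mov10l1, Clu, Hba-x, Cpa1 and Ibsp, chosen by size of change, were not called different. Of all genes 25.8% differed in either direction. Other list genes also differed, and for the replication, mitosis, meiosis and germ cell lists they are counted in the report. Values are the XX log2 fold change minus the XY one. Sex, mouse line and fluorophore cannot be told apart in them.

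Among the meiosis genes that passed, the difference was 3.38 for Sycp3, 3.48 for Hormad1 and 3.43 for Smc1b. It was 4.95 for Meioc, 4.36 for Terb1 and 6.03 for M1ap. The step of each was more positive in pre-granulosa cells than in Sertoli cells. M1ap fell in Sertoli cells, and the Meioc difference is larger than its pre-granulosa change of 4.56. Over the 38 tested genes of the meiosis list the difference was positive for 11 called genes and negative for 7. Of the genes with large gains in level, it was 4.96 for Cdkn1c, 1.25 for Cpe, 1.02 for Sdc4, 1.11 for Enpp2 and 2.51 for Calb1, and Cdkn1c fell in Sertoli cells. Serpini1 had 2.63 and Ifitm1 1.26, since both fell more in Sertoli cells or fell in them alone.

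Adrenal-type, neuroendocrine and globin genes had -7.19 for Cyp11a1, -6.22 for Chgb, -5.85 for Rgs4 and -6.48 for Hbb-y. Cyp11b1 had -12.95, a value that depends on the prior count because no E15.5 pre-granulosa library held a count. Stress and immediate-early genes had -5.58 for Hspa1a, -2.44 for Jun, -2.29 for Dusp1, -3.16 for Ccn1 and -3.48 for Arc, and the first 3 rose in Sertoli cells. Replication and other genes had -1.74 for Mcm7, -2.03 for Chaf1b, -2.06 for Myo7a and -1.98 for Fam181b.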

How the results depend on the processing

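No change called in both fits turned its direction under any alternative, and the median of all genes moved by at most 0.0312 on the log2 scale. With at least 2-fold change, 1275 genes were called (666 higher, 609 lower), and 2095 for the difference between the sexes, which had 6318 in the fit of the libraries compared alone. Leaving out each library in turn gave 2540 to 3919 called, 1328 to 1744 higher and 1212 to 2175 lower. The share of calls that were higher was 50% in edgeR and ran from 44.2% (DESeq2) to 56.4% (TPM without a filter). Replicate numbers did not pair the samples (correlations of deviations 0.103, -0.193 and 0.234), and with the replicate block 4145 genes were called against 4144. The calls of Jun and Dusp1 were lost with the replicate block. Under the replicate block 2 pre-granulosa genes were higher. For genes near 0 at E13.5, depth limits the fold, and 3 counts set the bound. Amplified reads are not independent molecules, so bounds cover counting error only.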
